A study of Mus musculus with 4 samples.

Results

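Of the sites at which the glucocorticoid receptor (GR) was listed after both 1 h and 12 h of corticosterone, 562 of 2436 (23.1%) held at least as many tags at 12 h as at 1 h. These kept or higher sites are described here. They were chosen by the readout itself: a 1 h peak had to overlap a 12 h peak by at least 1 bp, the overlapping peak with the nearest centre was taken as its partner, and the ratio of the deposited normalised tag counts, 12 h over 1 h, had to be 1 or more. The tag counts at both times are therefore given as a description without a test. The number of members depends on scaling to all tags of a library. Shared sites held 0.748% of all tags at 12 h and 1.11% at 1 h. Scaled to the tags at shared sites instead, 1333 sites (54.7%) had a ratio of 1 or more. The other shared sites serve as the comparison: 1281 were moderately lower at 12 h (ratio from 0.5 to under 1) and 593 were at least halved (ratio under 0.5). The 12 h list held 2883 peaks in all and the 1 h list 5638.

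The cells were 33AP1C9 cells, a mouse line derived from C127 mammary epithelial cells that carries stably integrated MMTV-pp7 reporter constructs and expresses a GFP-tagged PP7 coat protein; all groups share these transgenes. Receptor binding was assayed by immunoprecipitation of chromatin followed by sequencing (ChIP-seq), in cells given 600 nM corticosterone for 12 h, cells given 600 nM corticosterone for 1 h, and cells left untreated, after growth in charcoal-dextran serum. There was 1 library per condition, so that differences between libraries have no replicate check. The labels give each library a different catalogue number for the second antibody of the GR cocktail, and whether this affected the signal was not tested. The libraries held 97749688 tags at 12 h, 90556119 at 1 h and 79203826 in untreated cells. Tag values are scaled to 10000000 tags per library, except where raw tags are named.

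GR is a nuclear receptor that stays in the cytoplasm with HSP90 chaperones until a glucocorticoid such as corticosterone binds it, and then moves to the nucleus and binds DNA, mostly at enhancers far from gene starts. Its binding element is an imperfect palindrome of a pair of hexamers with a short spacer between them. The receptor exchanges rapidly on chromatin, and its occupancy follows the level of active hormone and the accessibility of the site. Its direct targets include genes that feed back on the hormone response, such as Fkbp5, which encodes a co-chaperone that lowers hormone binding, and Tsc22d3, whose product GILZ restrains inflammatory signalling.

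Only 8 of the 562 kept or higher sites (1.42%, Wilson 95% interval 0.723 to 2.78%) overlapped a RefSeq promoter window, defined as the 250 bases before to 50 bases after a gene start. Of these 8 windows, 1 belonged to a protein-coding gene, Syn2, which encodes the synaptic vesicle protein synapsin II. The others belonged to predicted or noncoding genes. A promoter window was met by 16 of the 593 at least halved sites (2.70%, 1.67 to 4.34%) and by 19 of the 1281 moderately lower sites (1.48%, 0.952 to 2.30%). The sequences of 3 kept or higher windows are shown because they hold the receptor motif, searched as GNACA and TGTNC with 3 bases of any kind between them, which reads the same on both strands and is printed in capitals. The Syn2 window is shown as the protein-coding one and has no match. The Sgk1 window, of a kinase gene that is a textbook glucocorticoid target, is shown for comparison: its site was moderately lower at 12 h. All sequences are from RefSeq, build GRCm38.p6, the assembly of mm10, written 5′ to 3′ on the strand of the gene. They lie at chr16:25059389-25059688 (plus strand, A230028O05Rik), chr13:33569268-33569567 (minus strand, Gm6093), chr10:21573711-21574010 (minus strand, Gm33945), chr6:115238744-115239043 (plus strand, Syn2) and chr10:21993640-21993939 (plus strand, Sgk1).
A230028O05Rik: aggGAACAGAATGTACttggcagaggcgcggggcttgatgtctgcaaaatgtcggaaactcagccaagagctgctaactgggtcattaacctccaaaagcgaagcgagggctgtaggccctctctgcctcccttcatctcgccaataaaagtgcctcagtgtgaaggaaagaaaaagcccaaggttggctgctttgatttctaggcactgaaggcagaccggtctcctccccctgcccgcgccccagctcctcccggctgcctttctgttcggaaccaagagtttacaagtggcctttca
Gm6093: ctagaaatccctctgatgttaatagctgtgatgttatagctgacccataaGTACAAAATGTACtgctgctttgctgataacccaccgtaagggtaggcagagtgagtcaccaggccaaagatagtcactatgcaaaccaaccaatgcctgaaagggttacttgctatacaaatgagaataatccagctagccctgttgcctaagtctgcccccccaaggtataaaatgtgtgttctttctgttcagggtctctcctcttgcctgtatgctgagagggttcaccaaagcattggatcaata
Gm33945: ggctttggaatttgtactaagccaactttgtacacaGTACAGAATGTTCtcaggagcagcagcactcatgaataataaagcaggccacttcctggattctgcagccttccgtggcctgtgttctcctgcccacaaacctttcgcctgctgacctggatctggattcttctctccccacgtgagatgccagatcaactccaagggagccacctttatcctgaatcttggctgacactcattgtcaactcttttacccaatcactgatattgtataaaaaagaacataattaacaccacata
Syn2: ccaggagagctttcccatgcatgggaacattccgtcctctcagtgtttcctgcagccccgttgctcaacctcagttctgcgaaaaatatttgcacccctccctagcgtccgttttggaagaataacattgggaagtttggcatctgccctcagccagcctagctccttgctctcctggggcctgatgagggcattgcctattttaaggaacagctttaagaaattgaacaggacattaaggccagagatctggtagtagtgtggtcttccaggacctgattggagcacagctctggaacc
Sgk1: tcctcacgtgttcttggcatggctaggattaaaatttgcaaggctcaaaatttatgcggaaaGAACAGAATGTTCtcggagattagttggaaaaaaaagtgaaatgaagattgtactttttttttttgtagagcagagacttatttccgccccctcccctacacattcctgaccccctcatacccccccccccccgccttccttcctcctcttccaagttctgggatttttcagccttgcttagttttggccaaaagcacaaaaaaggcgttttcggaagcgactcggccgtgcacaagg

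In the 3 windows with a match the motif lay close to the middle of the peak. In A230028O05Rik the 12 h peak centre was 7 bp and the 1 h peak centre 9 bp from the middle of the motif. The distances were 13 and 8 bp in Gm6093, and 4 and 11 bp in Gm33945. In the Sgk1 window they were 42 and 33 bp. Over all windows of the other 2 classes with a match, the 12 h distances ran from 13 to 43 bp and the 1 h distances from 1 to 40 bp. The motifs themselves were GAACAGAATGTAC in A230028O05Rik, GTACAAAATGTAC in Gm6093 and GTACAGAATGTTC in Gm33945, against GAACAGAATGTTC in Sgk1. Over whole windows the motif was present in 3 of 8 kept or higher windows, in 6 of 16 windows at least halved and in 3 of 21 windows moderately lower, and in 0.475% of all 32851 promoter windows of the table. The hexamer AGAACA, searched on both strands, was in 3 of the 8 kept or higher windows, in 4 of 16 and 9 of 21 of the other windows, and in 19.0% of all promoters. In Gm33945 one hexamer match overlaps the longer motif. The AP-1 element TGANTCA, which reads the same on both strands, was in 1 of 8, 2 of 16 and 4 of 21 windows and in 7.81% of all promoters. With 8 windows, no difference from the other classes in motif content was detectable.

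The site at A230028O05Rik held 147 tags at 12 h against 143 at 1 h, a log2 ratio of 0.04 (95% counting interval -0.07 to 0.15), or -0.06 per base of the window, which was wider at 12 h. The site at Gm6093 held 124 tags at 12 h against 97.6 at 1 h (log2 ratio 0.35, 0.23 to 0.48), while the site at Gm33945 held 112 and 90.0 (0.32, 0.19 to 0.45). In the untreated library the 12 h windows of these sites held 0.884, 1.64 and 1.52 tags. The site at Gm42190 held 101 tags at 12 h against 89.8 at 1 h, and the site at Gm31492 held 32.1 and 28.5. The Syn2 site was weaker, with 27.5 tags at 12 h against 20.3 at 1 h. Its 12 h window held 1.89 tags in the untreated library. The Sgk1 site held 34.2 tags at 12 h against 46.9 at 1 h.

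The kept or higher sites covered a wide range of signal. The lowest, median and highest tag counts were 8.70, 25 and 443 at 12 h, and 7.73, 18 and 433 at 1 h. Their median log2 ratio was 0.28, with an interquartile range of 0.13 to 0.54 and a maximum of 1.66, whereas over all shared sites the median was -0.49. Most lay near the limit of the rule: 158 had a ratio under 1.1, 288 a ratio from 1.1 to under 1.5, and 116 a ratio of 1.5 or more (4.76% of all shared sites). Of the shared sites 35 (1.44%) reached a ratio of 2, and 3 a ratio of 3. The counting interval of the ratio lay above 1 for 279 of the 562 (11.5% of all shared sites) and included 1 for 283. This describes the precision of the ratios, and since the rule chose ratios of 1 or more nothing further is read from it.

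**Figure D1:**
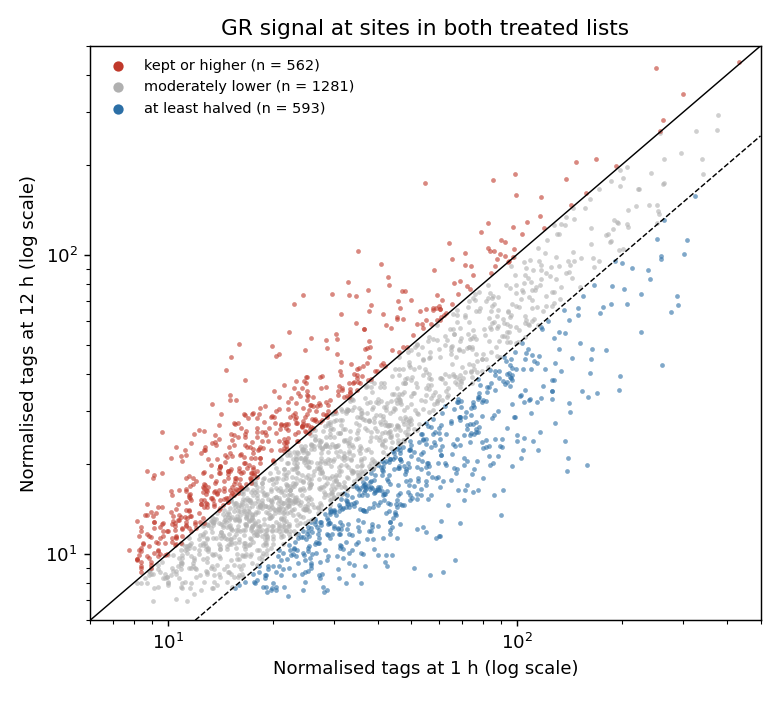
Normalised tags at 12 h (vertical axis) against 1 h (horizontal axis), both on log scales, for the 2436 shared sites; each point is 1 site, the solid line marks equal tags and the dashed line a ratio of 0.5. The 562 kept or higher sites lie on or above the solid line, from 8.70 to 443 tags at 12 h.

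At the limit itself, 11 sites had printed tag counts that were equal in both libraries. Among them were a site inside Ppl, a desmosomal plakin gene, with 94.6 tags at both times, a site near the cadherin gene Cdh18 with 30.1, and a site inside Glis3, a zinc finger factor gene, with 28.7. Just outside the rule stood a site nearest to Tsc22d3 with 98.2 tags at 12 h against 98.4 at 1 h, a site nearest to Adra1b with 256 and 257, and a site nearest to Sgpp1 with 8.80 and 8.83. The counting intervals of all 6 ratios included 1.

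The kept or higher class changed with the strength of the site at 1 h, by which the ratio divides. With the shared sites in 5 groups of about equal size by 1 h tags, 50.6% of the weakest and 9.65% of the strongest group were kept or higher. Ranked by 12 h tags the direction was the other way, with 12.3% in the weakest and 29.2% in the strongest group. Ranked by the geometric mean of both counts, which favours neither library, the shares were 31.6% (27.6 to 35.8%) in the weakest and 18.9% (15.7 to 22.6%) in the strongest group. Since each ranking uses values that chose the members, these shares describe the class and do not show that weak sites were better kept. Only listed sites have a ratio, and a weak 1 h site that fell further would have left the 12 h list.

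The 10 kept or higher sites with most tags at 12 h lay near Ptpn1, Zbtb16, Pdlim5, Fkbp5, 1700056E22Rik, Tenm4, Cd82, Phlpp1, Foxp1 and Aldh1a1. The site 86.0 kb from Ptpn1, which encodes a tyrosine phosphatase, held 443 tags at 12 h against 433 at 1 h (log2 ratio 0.03, -0.03 to 0.10). The site inside Pdlim5, which encodes an actin-associated PDZ and LIM protein, held 345 and 300.5 (0.20, 0.13 to 0.27), and the site inside Phlpp1, an AKT phosphatase gene, held 198 and 192 (0.04, -0.05 to 0.14). Larger ratios were found at Foxp1, a forkhead repressor gene, with 186 tags at 12 h against 98.9 at 1 h (0.91, 0.79 to 1.03), and at a site 22.5 kb from Cd82, a tetraspanin gene, with 204 and 148 (0.47, 0.37 to 0.57). Aldh1a1, a retinaldehyde dehydrogenase gene, held 2 shared sites inside its span, both kept or higher, with 180 and 70.7 tags at 12 h and 139 and 61.3 at 1 h. The site inside Tenm4, a teneurin gene, held 209 tags at 12 h against 169 at 1 h. In the untreated library these 10 sites held between 0.758 and 3.41 tags in the 12 h window. Counted per base of the window, which was wider at 12 h, the sites at Ptpn1, 1700056E22Rik and Phlpp1 had log2 ratios of -0.07, -0.08 and -0.06 and would not be members.

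Among members with at least 20 tags at 12 h, the 10 highest log2 ratios ran from 1.32 to 1.66. The highest was at a site inside Zhx3, which encodes a zinc finger and homeobox repressor (chr2:160805186-160805468), with 173 tags at 12 h against 54.8 at 1 h (log2 ratio 1.66, 1.52 to 1.81). Its 12 h window held 2.27 tags in the untreated library. A site 28.7 kb from Irf2, an interferon regulatory factor gene, held 50.2 tags at 12 h against 16.0 at 1 h, and a site 35.0 kb from Pax3, a paired box factor gene, held 73.2 and 24.5. The site 8.26 kb from Ugt2a1, a UDP-glucuronosyltransferase gene, held 103 tags at 12 h against 35.2 at 1 h. A site inside Tspear held 68.5 and 23.1, and one 8.46 kb from Tmem176b held 41.1 and 14.7. The remaining 4 sites were nearest to Ctxn3, Pmaip1, Crispld2, and Veph1, with 25.6 to 74.0 tags at 12 h and 9.61 to 29.5 at 1 h. The ranking uses the libraries that chose the sites, so these values are a description.

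Position was not used by the rule, and the kept or higher sites stood in more gene-poor surroundings than the other shared sites. A median of 6 protein-coding genes (interquartile range 3 to 12) lay within 500 kb of a kept or higher site, against 8 (4 to 15) for moderately lower and 9 (5 to 16) for at least halved sites. At the gene-dense end, 11.0% of kept or higher sites had 20 or more genes within 500 kb. The difference from moderately lower sites (13.7%), -2.71 percentage points (-5.77 to 0.66), had an interval that included 0. From at least halved sites (18.7%) it was -7.69 (-11.8 to -3.59). The shared sites were then split into 5 groups by this gene count. Of the 650 sites with 0 to 4 genes around them, 30.9% (27.5 to 34.6%) were kept or higher. The share was 26.3% of 334 sites with 5 to 6 genes, 19.3% of 524 with 7 to 10 and 19.7% of 478 with 11 to 17. Of the 450 sites with 18 to 64 genes, 17.3% (14.1 to 21.1%) were kept or higher. The difference between the outer groups was 13.6 percentage points (Newcombe 95% interval 8.49 to 18.5).

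**Figure D2:**
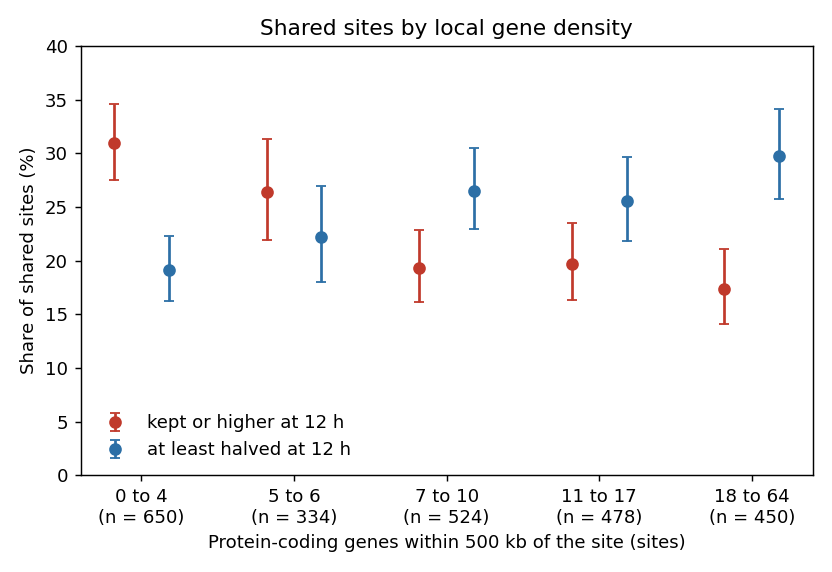
Share of shared sites (vertical axis, percent) that were kept or higher or at least halved at 12 h, in 5 groups by the number of protein-coding genes within 500 kb (horizontal axis); points are shares and bars Wilson 95% intervals. The kept or higher share is 30.9% in the group with fewest genes and 17.3% in the group with most, while the at least halved share is 19.1% and 29.8%.

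The at least halved share went the other way, with 19.1% (16.2 to 22.3%) in the group with fewest genes and 29.8% (25.7 to 34.2%) in the group with most. The median log2 ratio over all sites of a group was -0.33 in the group with fewest genes and -0.63 in the group with most. The untreated library differed little along this axis, with a mean of 12.0 raw tags per 1 h window where genes were fewest and 11.2 where they were most dense. The median signal at 12 h was 19.7 tags where genes were fewest and 20.6 where they were most dense, and the 1 h medians were 26.8 and 33.3. These intervals treat sites as independent, which neighbouring sites are not, and they compare 2 libraries, not the conditions. Base composition, which also differs along chromosomes, was not used here, and its part in the result was not tested.

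The same order held within each of the 5 groups of site strength by the geometric mean, although the intervals were wide there. The geometric mean uses both counts that the ratio divides, so these groups do not match sites on 1 h tags. Whether the higher 1 h signal in gene-dense surroundings accounts for the order was not tested. The difference in kept or higher share between sites with fewest and with most genes was 16.5 percentage points (3.75 to 28.3) among the weakest sites and 17.9 (6.13 to 28.6) among the strongest. Among the sites of the third and the fourth strength group it was 11.1 (-0.31 to 21.7) and 7.90 (-3.27 to 18.8), intervals that include 0.

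Kept or higher sites were also farther from gene starts. Starts of protein-coding genes were taken from the RefSeq promoter table, which held 17492 of 21900 protein-coding genes. The genes without an entry lie partly in blocks, so that distances near them are too long. The median distance to the nearest start was 77.0 kb over 548 kept or higher sites on the chromosomes of the table, 62.6 kb over 1244 moderately lower and 43.7 kb over 576 at least halved sites. A start lay more than 100 kb away for 44.9% of kept or higher sites (40.8 to 49.1%), 36.1% of moderately lower and 31.2% of at least halved sites. The difference from the at least halved sites was 13.6 percentage points (7.97 to 19.2), and from the moderately lower sites 8.80 (3.87 to 13.7). Among sites at which every protein-coding gene within 100 kb had an entry, so that this share does not depend on the genes without one, it was 46.6% of 414 kept or higher (41.9 to 51.4%), 38.5% of 853 moderately lower and 36.2% of 395 at least halved sites. The differences there were 10.4 percentage points (3.62 to 17.1) from the at least halved and 8.17 (2.37 to 13.9) from the moderately lower sites. Over all sites with a start distance, this share also exceeded that of at least halved sites within each of the 5 strength groups by the geometric mean. It exceeded that of moderately lower sites except in the third group, at 38.2% against 39.1%. The median distances in that group were 59.6 kb for kept or higher and 64.4 kb for moderately lower sites. Here too the strength groups do not match sites on 1 h tags. The distance to gene spans, which were known for all 21900 genes, differed less: the share more than 100 kb away was 6.03 points (1.52 to 10.5) higher than in at least halved and 5.73 (1.87 to 9.81) higher than in moderately lower sites. Within 1 kb of a start lay 2 of 548 kept or higher sites (0.365%, 0.1 to 1.32%), 14 of 1244 moderately lower sites (1.13%, 0.672 to 1.88%) and 18 of 576 at least halved sites (3.12%, 1.99 to 4.89%). The difference from at least halved sites was -2.76 percentage points (-4.54 to -1.27), whereas the difference from moderately lower sites, -0.76 points (-1.56 to 0.30), had an interval that included 0. Within 10 kb the difference from moderately lower sites, -1.32 points (-4.55 to 2.22), also included 0. From at least halved sites it was -4.94 points (-9.11 to -0.75). The 2 kept or higher sites within 1 kb were the Syn2 site and a site 0.661 kb from a start. The latter was nearest to Ifitm2, an interferon-induced membrane protein gene, with 22.6 tags at 12 h against 18.8 at 1 h.

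**Figure D3:**
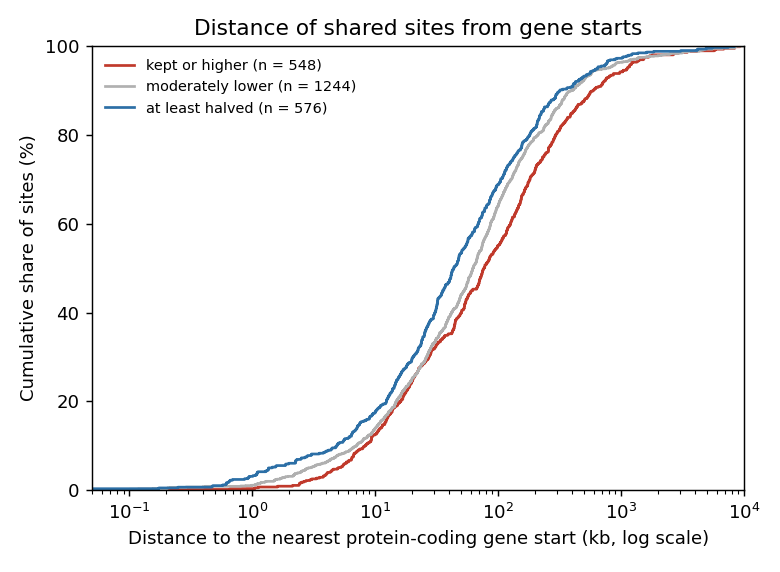
Cumulative share of sites (vertical axis, percent) by distance of the 1 h peak centre to the nearest start of a protein-coding gene (horizontal axis, kb, log scale), 1 line per class of shared site. The line of the kept or higher sites lies to the right of that of the at least halved sites, with medians of 77.0 and 43.7 kb.

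Gene bodies showed a smaller difference. Inside the span of a protein-coding gene lay 37.4% of kept or higher sites (33.5 to 41.4%), 41.1% of moderately lower (38.4 to 43.8%) and 43.5% of at least halved sites (39.6 to 47.5%). The difference from the moderately lower sites, -3.70 percentage points, had an interval that included 0 (-8.45 to 1.17). From the at least halved sites it was -6.14 points (-11.7 to -0.48). Of the kept or higher sites 24 (4.27%) had no protein-coding gene within 500 kb, against 18 moderately lower (1.41%) and 11 at least halved sites (1.85%). Sites listed at 12 h alone resembled the kept or higher sites in 3 distance measures. Their median was 77.0 kb to a start, with 42.2% farther than 100 kb and 22.1% more than 100 kb from any gene span. Within 1 kb of a start, however, lay 7 of 429 of them (1.63%, 0.793 to 3.33%). Their median of 8 protein-coding genes within 500 kb was that of the moderately lower sites. Sites listed at 1 h alone had a median of 55.1 kb to a start, with 35.0% farther than 100 kb and 16.0% more than 100 kb from a gene span. For the kept or higher sites the last share was 21.9% (18.7 to 25.5%).

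By chromosome the kept or higher share ran from 34.1% of the 138 shared sites on chromosome 3, 33.3% of 66 on chromosome X and 31.7% of 139 on chromosome 6 to 17.1% of 146 on chromosome 4 and 13.8% of 152 on chromosome 7. The intervals of single chromosomes were wide, at 26.7 to 42.3% for chromosome 3 and 9.22 to 20.2% for chromosome 7. Chromosomes 7 and 11, with 14.0 and 13.2 protein-coding genes per Mb, had shares of 13.8% and 18.2%. At the gene-poor end, chromosome X, with 5.66 genes per Mb, had 33.3%. Chromosomes 18 and 12, with 5.64 and 5.66, had only 20.6% and 20.5%, while chromosome 17, with 11.2, had 22.2%. Over the 20 chromosomes the share and the gene density had a Pearson r of -0.60 and a Spearman rho of -0.60, a description across chromosomes of the same pair of libraries. With the mean raw tags of the untreated library per 1 h window, which varied from 6.85 on chromosome X to 16.6 on chromosome 15, the share had a Pearson r of -0.21.

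The untreated library held nearly the same signal at all classes of shared site. The median was 11 raw tags per 1 h window and 12 per 12 h window in each of the 3 classes, and the mean per 1 h window was 11.6 at kept or higher, 11.8 at moderately lower and 11.6 at at least halved sites. Both treated lists required a fold of 6 or more relative to this library, which limits its tags at weak sites. The kept or higher sites with most untreated tags lay inside Otogl with 31 raw tags in the 12 h window, 183 kb from Sucnr1 with 31, 229 kb from Nmur2 with 30, inside Veph1 with 30, and 10.2 kb from Selenop, the gene of a selenium transport protein, with 29. In normalised tags these windows held 3.66 to 3.91, while the same sites held 26.4 to 75.6 tags at 12 h and 21.9 to 59.3 at 1 h.

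The median offset between the 12 h and the 1 h peak centres was 20 bp at kept or higher sites, against 19 bp at moderately lower and 17 bp at at least halved sites. The focus ratio, the caller's share of a peak's tags near its centre, had a median of 0.857 at 12 h against 0.840 at 1 h in kept or higher sites, and of 0.843 at 12 h against 0.883 at 1 h in at least halved sites. The focus ratio comes from the libraries that chose the sites.

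Kept or higher sites had kept or higher neighbours more often than the other shared sites did. Of the kept or higher sites 122 (21.7%) had another shared site within 25 kb. The nearest such neighbour was itself kept or higher for 46 of them (37.7%, 29.6 to 46.6%), moderately lower for 60 and at least halved for 16. For 288 moderately lower sites with a neighbour the kept or higher share was 21.5% (17.2 to 26.6%), and for 121 at least halved sites 14.0% (8.96 to 21.4%). Within 5 kb, 14 kept or higher sites had a neighbour, which was kept or higher for 8, moderately lower for 6 and at least halved for none, so that the upper Wilson limit of the last share was 21.5%. Pairs are counted from both sides and the intervals treat them as independent, so the intervals are too narrow. The class itself comes from the ratio. Over all shared sites the kept or higher share was 23.1%.

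**Figure D4:**
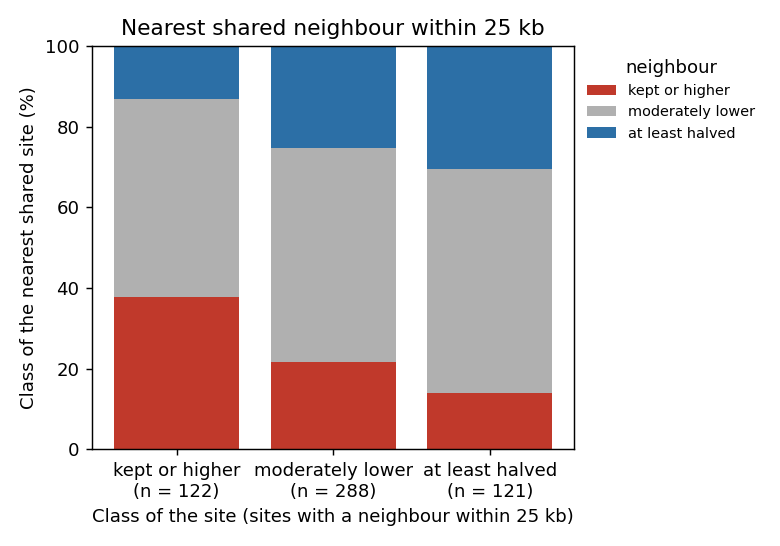
Class of the nearest other shared site within 25 kb (vertical axis, percent of sites), for kept or higher, moderately lower and at least halved sites (horizontal axis, with the number of sites). The neighbour was kept or higher at 37.7%, 21.5% and 14.0% of them.

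Joined into runs with gaps of up to 50 kb, the kept or higher sites formed 487 single sites, 28 pairs, 5 runs of 3 and 1 run of 4. The run of 4 lay inside Zbtb16, which encodes the zinc finger factor PLZF, a glucocorticoid-induced gene. Along the chromosome its members held 421, 92.7, 93.5 and 96.7 tags at 12 h, and 250.2, 71.3, 41.0 and 65.3 tags at 1 h. The untreated library held 0.758, 1.52, 0.884 and 2.15 tags there. Their log2 ratios were between 0.38 (0.23 to 0.53) and 1.19 (1.01 to 1.37). The other 3 of the 7 shared sites within 25 kb of Zbtb16 were not members: one held 144 tags at 12 h against 145 at 1 h, one 18.5 and 21.6, and one outside the gene was at least halved, with 7.77 and 18.8.

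Tsc22d3 had members and non-members side by side. The run near Prps1 and Tsc22d3 held 3 kept or higher sites among 6 shared ones in 23.6 kb, with 92.1, 48.6 and 105.5 tags at 12 h and 86.6, 36.9 and 82.9 at 1 h. The first of these was nearest to Prps1, 29.9 kb away, and had a log2 ratio of 0.09 (-0.05 to 0.23). Per base of the window its log2 ratio was -0.01, and it would not be a member. Of the 5 shared sites within 25 kb of the gene span 2 were kept or higher, while the other 3 were lower at 12 h, for example with 34.0 tags at 12 h against 55.0 at 1 h. Foxp1 showed the widest split within 1 gene among those plotted. Its member described above stood beside a second member with 26.9 tags at 12 h against 21.6 at 1 h, and beside a site that held 64.6 tags at 12 h against 276 at 1 h (log2 ratio -2.10, -2.23 to -1.97).

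**Figure D5:**
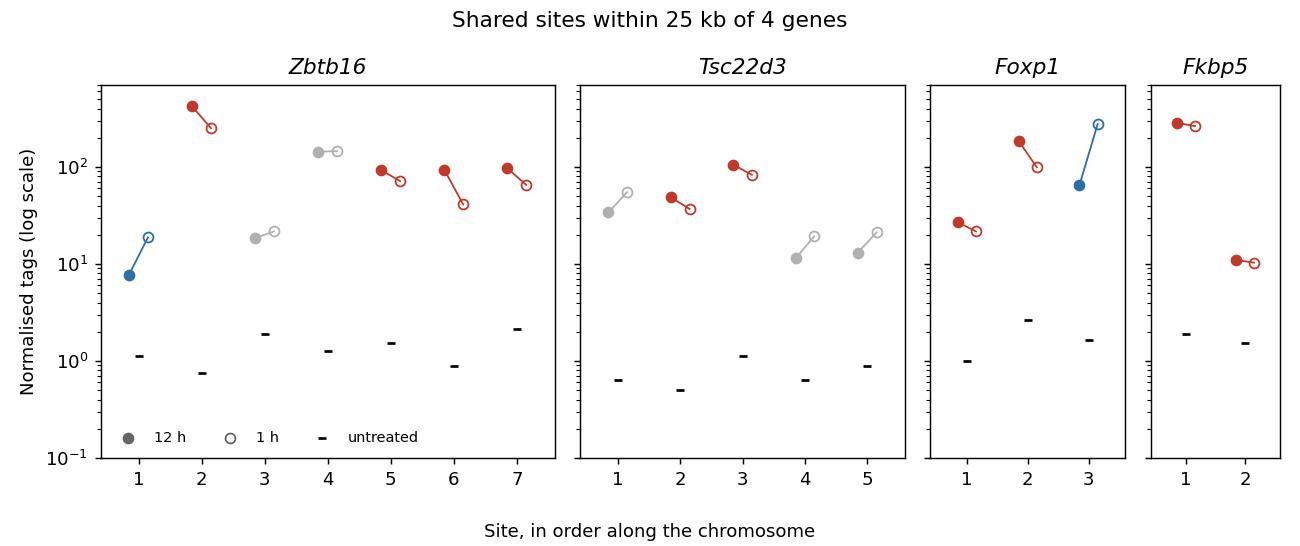
Normalised tags (vertical axis, log scale) at each shared site within 25 kb of Zbtb16, Tsc22d3, Foxp1 and Fkbp5, in order along the chromosome (horizontal axis); filled points are 12 h, open points 1 h and dashes the untreated library in the 12 h window, and red, grey and blue mark kept or higher, moderately lower and at least halved sites. Both Fkbp5 sites are kept or higher, while the other 3 genes hold sites of more than 1 class.

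The other 4 runs of 3 were weaker. At Lep, the leptin gene, 3 kept or higher sites held 39.5, 37.6 and 22.8 tags at 12 h and 27.7, 35.1 and 16.9 at 1 h, and there was no other shared site in that stretch. At 4930486L24Rik 3 members held 41.8, 12.8 and 30.6 tags at 12 h and 35.4, 9.17 and 22.2 at 1 h. Another run lay in a gene desert on chromosome 10 with no protein-coding gene within 500 kb and Cited2 as the nearest at 1170 kb. It held 12.8, 39.7 and 32.6 tags at 12 h, and 9.17, 31.4 and 15.1 at 1 h. The last, near Amotl2, summed to 79.8 tags at 12 h against 63.9 at 1 h.

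Of 21900 protein-coding genes 417 (1.9%) had a kept or higher site within 25 kb of their span, and 1819 (8.31%) had any shared site. Among the genes with a shared site 22.9% had a kept or higher one, the share against which the lists are read. Of 28 core glucocorticoid target genes 16 had a shared site and 5 a kept or higher one, which were Fkbp5, Tsc22d3, Klf9, Zbtb16 and Ddit4. That is 31.2% of the core genes with a shared site, against 22.9% over all genes. A share by gene rises with the number of shared sites per gene, so no difference is read from it. Counted once per gene, the 16 core genes held 34 shared sites, 10 of them kept or higher. Zbtb16 alone held 7 of the 34 and 4 of the 10. Over all shared sites the class was 562 of 2436 (23.1%). The core list was written with earlier results of these data known.

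Fkbp5 held 2 shared sites, both members: the one inside the gene held 284 tags at 12 h against 264 at 1 h (log2 ratio 0.11, 0.03 to 0.19), while the one 5.01 kb outside held 11.0 and 10.3. Per base of the window each log2 ratio is 0.10 lower, since the 12 h windows were wider, which leaves the main Fkbp5 site at 0.01 and takes the other Fkbp5 site and Klf9 below the limit. Klf9, a Krüppel-like factor gene, had 38.1 tags at 12 h against 37.5 at 1 h at its only shared site (0.02, -0.20 to 0.24). Ddit4, an inhibitor of mTOR signalling, had a site 22.5 kb away and nearer to Anapc16, with 103 tags at 12 h against 83.7 at 1 h (0.30, 0.16 to 0.44). The other 11 core genes with a shared site, Per1, Sgk1, Dusp1, Ampd3, Mt1, Mt2, Errfi1, Glul, Zfp36, Cited2 and Cdkn1a, had no kept or higher one.

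The other lists held between 0 and 11 genes with a shared site, so that a single gene moves their share by a large step. Of 20 circadian clock genes 5 had a shared site and 1 of these (20%) a kept or higher one: Per2, a clock repressor gene, held 129 tags at 12 h against 107 at 1 h inside its span (log2 ratio 0.28, 0.15 to 0.40). Of 18 receptor, chaperone and steroid metabolism genes 3 had a shared site, and Fkbp5 (33.3% of them) had a kept or higher one. Of 16 Krüppel-like factor genes 6 had a shared site, with Klf9 and Klf12 in the class (33.3%), and Klf12 held 22.4 tags at 12 h against 18.3 at 1 h. Of 19 MAP kinase and growth signal inhibitor genes 3 had one, and 1 of them (33.3%), Rasa3, a Ras GTPase-activating gene, held 74.2 tags at 12 h against 67.9 at 1 h (0.13, -0.03 to 0.28). Of 21 inflammatory genes 5 had a shared site and 3 (60.0%) a kept or higher one. The first was Nfkb1 with 16.0 tags at 12 h against 15.9 at 1 h (0.01, -0.33 to 0.34). Its log2 ratio per base of the window was -0.09, below the limit. The others were the chemokine genes Cxcl1 and Cxcl2, which counted the same site with 18.6 and 12.6 (0.56, 0.22 to 0.92).

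Among 19 actin and adhesion genes 11 had a shared site, and Pdlim5 alone had a kept or higher one. That is 9.09% of them, against 22.9% over all genes. Counted once per gene, the 11 genes held 18 shared sites, of which 1 was kept or higher. With so few genes, a single further gene would move the share by a large step. The 3 AP-1 factor genes with a shared site (Junb, Jund and Batf3), the 3 mammary and luminal epithelial genes (Krt7, and Krt8 and Krt18, which share a site) and the 2 housekeeping genes (Hprt and Tbp) had no kept or higher site. None of 15 immune cell markers had a shared site of any class.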

How the data were processed

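GR was measured by ChIP-seq in 3 libraries with a peak list (12 h, 1 h and untreated); an input sample was not analysed here. The submitters' processing notes name bcl2fastq 2.17, Bowtie2 2.2.6 and HOMER, on mm10; for HOMER no version is given there. HOMER findPeaks called each library on its own in factor style, with a false discovery rate of 0.001 per the file headers, a tag threshold of 75, and a fold of at least 6 over control and over the surrounding 10 kb, with a Poisson p-value of at most 0.0001. The untreated ChIP library was the control of both treated lists, per the file headers. The deposited normalised tag count is a signal scaled to a library of 10000000 tags. The deposited fold over control and over the local region are ratios of the caller, and the deposited p-value was not used. The caller's score was deposited by the authors for every peak and served only as a stricter filter. The focus ratio is a fraction deposited by the authors. The untreated peak has a deposited whole tag count, which was not used. Raw treated tags were recovered from the deposited scaled tags and were whole within 0.1 of a tag for 100% of peaks; untreated tags of 0.5 stand for the caller's floor.

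Ratios carry exact binomial (Clopper-Pearson) 95% intervals, shares Wilson intervals and differences of shares Newcombe intervals; all reflect counting error alone, as PCR reads lacking molecular identifiers need not be separate molecules. No test was possible with 1 library per condition. Gene spans, starts and promoters came from RefSeq tables of GRCm38.p6. Named sites are the 10 members with most 12 h tags, the 10 with the highest ratio among those with at least 20 tags at 12 h, up to 4 genes per list, the 5 largest runs, 3 sites on either side of the limit, up to 6 members on promoters and the 5 with most untreated tags; the Ifitm2 site, the Amotl2 run, the sites at Foxp1 and Zbtb16 that are no members, and the 3 promoters with a motif were chosen after their values were seen. Members and the 11 gene lists were chosen with earlier results of these data known. Pairing and intervals were tested on simulated data. Python 3.11.15, numpy 2.4.6, scipy 1.17.1 and pandas 2.3.3 were used.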

Additional observations from a re-analysis of the deposited data

How the results depend on the processing

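The size of the class depended on how the libraries were scaled. Scaled to the tags at shared sites in place of all tags, which adds a constant to each log2 ratio, 1333 of 2436 sites (54.7%) were kept or higher. Of these 543 were at 1.5-fold or more and 188 at 2-fold or more, and 938 had an interval above 1. There were 10 core genes of 28 with a member, a count without the share over all genes under this scaling. Another member lay within 25 kb for 14.6%, against 8.90% under the main rule, a share that depends on the number of members. A start lay more than 100 kb away for 40.8%. Among the 862 pairs at 2 times the caller's minimums, a smaller set by construction, 200 (23.2%) were members, close to the 23.1% of all shared sites. Of these 43 were at 1.5-fold, 12 at 2-fold and 118 had an interval above 1, and 5% had another member within 25 kb. Per base of the window 444 sites (18.2%) were members, and 22 reached 2-fold. Within 10 kb 3 core genes of 28 had a member, again without the share over all genes. The difference in kept or higher share between surroundings with fewest and with most genes stayed between 9.77 and 17.9 percentage points under each scaling, pairing, filter and gene window tried, except for 7.90 in the fourth strength group. Ratios of recovered whole tags, an alternative chosen after seeing the data like all those for gene starts and gene density, gave 555 members. The other 46 values stayed within the interval of the reported share or within 1.5 times the reported count. No paired analysis was possible because each condition has a single library. Sites near the caller's minimums hold few tags, and there a ratio close to 1 cannot be told from a modest loss.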
